A study of Mus musculus with 5 samples.

Results

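Atf4, 6 genes that it is known to control and the 3 enzymes of serine synthesis were followed in whole mouse embryos with and without the folate receptor gene Folr1. The 10 genes are Atf4, Atf3, Ddit3, Trib3, Asns, Chac1, Sesn2, Phgdh, Psat1 and Psph, out of 12393 genes that the arrays measure with at least 1 probe set of a single gene symbol. A probe set was taken for a gene only where the platform annotation gives that symbol alone, which found 19 probe sets, and where a gene had several, the one with the highest mean of log2(signal + 16) over the 5 arrays stood for it. RNA came from C57BL6J embryos at embryonic day 9.5, with 2 Folr1-/- and 3 Folr1+/+ arrays, 1 array per biological replicate. The Folr1-/- embryos came from Folr1+/- parents, and the dams were given a diet enriched in folate before mating and through pregnancy. The labels give no separate diet for the dams of Folr1+/+ embryos and state neither the part of Folr1 that the allele lacks nor how many embryos went into 1 array. In RNA of whole embryos, fewer cells of a type and less RNA per cell cannot be told apart.

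ATF4 is a transcription factor of the integrated stress response. Kinases that sense amino acid shortage, a misfolded protein load, viral RNA or lack of heme phosphorylate the initiation factor eIF2, which lowers protein synthesis in general and raises translation of the Atf4 mRNA, so that ATF4 activity can change with little change in that mRNA. ATF4 then switches on genes for amino acid import and synthesis, and under lasting stress genes for cell death. Serine is made from the glycolytic intermediate 3-phosphoglycerate by PHGDH, PSAT1 and PSPH in turn, and its side chain is the main source of the carbon units that the folate cycle carries. Listing these enzymes apart from the other genes does not place them outside the control of ATF4.

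Of the 10 genes, only Phgdh and Psph, the first and the last enzyme of serine synthesis, passed the test, and both rose. Phgdh had a mean signal of 1651 ± 73.2 (SD, n = 2) in Folr1-/- arrays and 1155 ± 156 (SD, n = 3) in Folr1+/+ arrays. Psph averaged 137 ± 21.1 (SD, n = 2) in Folr1-/- arrays and 69.3 ± 27.7 (SD, n = 3) in Folr1+/+ arrays. Atf4, Atf3, Ddit3, Asns, Sesn2 and Psat1 did not pass in either direction, and Trib3 and Chac1 were not tested. At an unadjusted p under 0.05 only the same 2 genes passed. Both calls lie close to the threshold and are lost when any 1 of 4 of the 5 arrays is left out, all but Folr1+/+ replicate 1.

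The test was limma's moderated test on log2(signal + 16), fitted over 7436 genes, with Benjamini-Hochberg adjustment and a threshold of 0.05 on the adjusted p. Only genes at or above the 40th percentile of the mean log2 value were tested. Trib3 and Chac1, at the 25.3th and 37.7th percentiles, were too dim for the test, and Ddit3, at the 40.7th, was just bright enough. Passing the threshold were 2 of the 8 tested members, and 15.0% of all tested genes passed it. In the direction higher in Folr1-/-, 8.19% of all tested genes passed. The groups were separate, with no overlap, in 2 of the 8, Phgdh and Psph, while 46.7% of all genes tested had separate groups. Fold changes are Folr1-/- over Folr1+/+ on the log2(signal + 16) scale, which understates the change of dim genes. The median over the 8 tested members was 0.33, beside -0.02 over all tested genes, with 6 positive and 2 negative values.

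**Figure D1:**
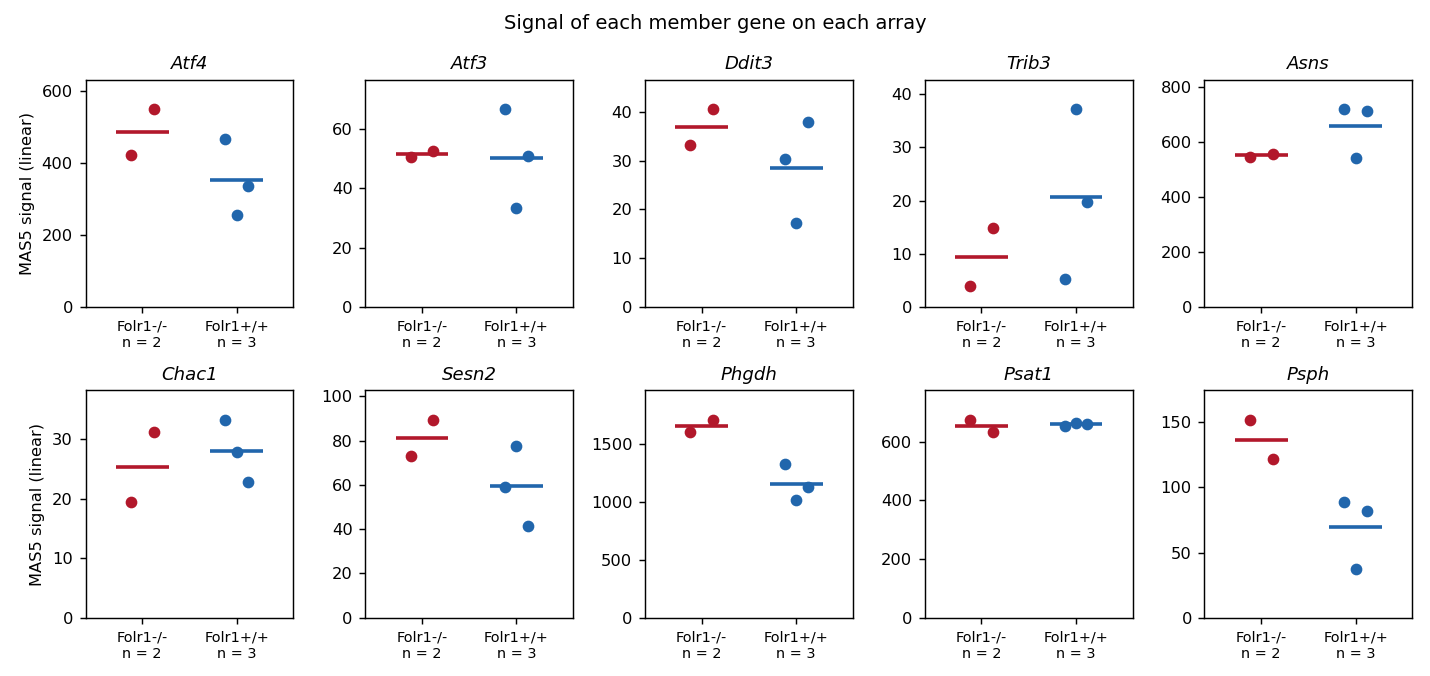
MAS5 signal of the 10 genes on each array, on a linear axis that starts at 0, with Folr1-/- arrays in red, Folr1+/+ arrays in blue and a bar at each group mean. The groups are separate only for Phgdh and Psph, and the 5 values of Psat1 lie between 635 and 674.

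Some measures moved with the groups. Markers of visceral endoderm and yolk sac were higher in Folr1-/- arrays in 11 of 11 tested genes, and their summed signal was 16218 to 16422 in Folr1-/- arrays and 2307 to 3328 in Folr1+/+ arrays. Neural progenitor markers fell in 6 of 7 tested genes, with sums of 290 to 341 in Folr1-/- arrays and 1062 to 1147 in Folr1+/+ arrays, and Zic1 was under a signal of 16 in both Folr1-/- arrays. The other tested neural marker, Fabp7, lay in the opposite direction without passing, with 49.2 and 32.1 in Folr1-/- arrays, against 26.8, 25.6 and 27.4 in Folr1+/+ arrays. Primitive erythroid markers fell in 6 of 7 tested genes, with sums of 175 to 597 in Folr1-/- arrays and 5336 to 6301 in Folr1+/+ arrays, and Slc4a1 and Alas2 were under 16 in both Folr1-/- arrays. Of the trophoblast and decidua markers 2 of 2 tested genes rose, with sums of 334 to 440.3 in Folr1-/- arrays and 133 to 143 in Folr1+/+ arrays. Of the 2 tested macrophage markers 0 passed limma's test, and 1 had an unadjusted p under 0.05. Xist read 419 and 770.4 in Folr1-/- arrays, against 24.95 to 35.7 in Folr1+/+ arrays. The Y-linked Eif2s3y had 104 and 3.13 in Folr1-/- arrays, against 300.3, 345 and 372 in Folr1+/+ arrays, and Kdm5d had 25.2 and 0.796 in Folr1-/- arrays, against 120.5, 89.5 and 107 in Folr1+/+ arrays. The sex-linked signal thus differed between the groups and also between the Folr1-/- arrays, of which replicate 1 carried both Xist and Y-linked signal. The part of these differences in the values of Phgdh and Psph was not tested. Folr1 itself had a log2 fold change of -0.07 ± 0.20 (SE), so its probe set does not separate the groups.

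Array quality was read from the 3'/5' signal ratio of Actb and from spiked control transcripts. The Actb ratio, higher where RNA is shortened or amplified unevenly, was 30.5 and 22.8 in the Folr1-/- replicates, against 21.1, 39.5 and 29.1 in the Folr1+/+ replicates. The geometric mean signal of 18 spiked control probe sets was 314 and 445.5 in the Folr1-/- replicates, against 426.4, 831.1 and 469.2 in the Folr1+/+ replicates. Folr1+/+ replicate 2, with the highest ratio, was the lowest of the 3 Folr1+/+ arrays for 6 of the 10 genes (Atf4, Atf3, Ddit3, Asns, Phgdh and Psph), and it was the lowest for 37.2% of all tested genes. Without it, 0 of the 10 genes passed the threshold, and the same held without Folr1+/+ replicate 3. The log2 fold changes of Phgdh and Psph were 0.52 and 0.89 with all arrays. They were 0.43 and 0.59 without Folr1+/+ replicate 2, and 0.50 and 1.02 without Folr1+/+ replicate 3. Over all genes, 975 passed without Folr1+/+ replicate 2 and 639 without Folr1+/+ replicate 3. The part of array quality in the calls was not tested.

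The stretches printed next show which members carry the DNA element that ATF4 is known to bind together with C/EBP proteins. Its core, TGATGNAA, was searched on both strands from 250 bases before to 50 bases after each start in RefSeq's GRCm38.p6 promoter table, where all 10 genes matched with 11 starts. It was found for 4 of the 10 genes, Atf3, Chac1, Trib3 and Asns, and in 3.97% of all 32851 promoters. The 60 bases around each match are printed along the strand of the gene, with the match in capitals. In Atf3, Chac1 and Trib3 it reads on the opposite strand, as TTNCATCA.
Atf3, chr1:191183410-191183469, minus strand, match starting 110 bases before the start: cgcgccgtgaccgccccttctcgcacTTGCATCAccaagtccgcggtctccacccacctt
Chac1, chr2:119351023-119351082, plus strand, match starting 193 bases before the start: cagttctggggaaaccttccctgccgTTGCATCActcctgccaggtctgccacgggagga
Trib3, chr2:152344013-152344072, minus strand, match starting 14 bases after the start: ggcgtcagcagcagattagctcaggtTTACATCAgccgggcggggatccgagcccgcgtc
Asns, chr6:7693199-7693258, minus strand, match starting 23 bases before the start: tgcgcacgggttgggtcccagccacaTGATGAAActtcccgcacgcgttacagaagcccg
None of these 4 genes passed the test or stood apart between the groups, and Trib3 and Chac1 were too dim to be tested. The longer endoplasmic reticulum stress element was found near the start of 0 of the 10 genes and in 0.119% of all promoters. A match is only a run of letters, and these windows miss sites farther from the start.

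Atf4 did not pass the test. Its signal was 422 and 548 in the Folr1-/- replicates, against 466, 255 and 336 in the Folr1+/+ replicates. The groups overlapped, since Folr1-/- replicate 1 lay under Folr1+/+ replicate 1. Its fold change of 0.47 ± 0.22 (log2, SE, limma adjusted p = 0.18) had a 95% interval of -0.02 to 0.96. The value was positive at all 16 other settings tried, from 0.20 to 0.69, and it passed at 1 of them, without Folr1+/+ replicate 1 (0.69, limma adjusted p = 0.044). Its second probe set, 1438992_x_at, had 197 and 254 in Folr1-/- arrays, against 218, 199.97 and 179.96 in Folr1+/+ arrays, a difference of 0.16. The third, 1439258_at, stayed under a signal of 4 on every array and carries no measurable level.

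Atf3, a stress-induced transcription factor that ATF4 switches on, did not separate the groups. Its signals were 50.4 and 52.4 in the Folr1-/- replicates, against 66.5, 33.3 and 50.8 in the Folr1+/+ replicates. Both Folr1-/- values lay inside the Folr1+/+ range. The log2 fold change was 0.06 ± 0.23 (SE, limma adjusted p = 0.90, 95% interval -0.45 to 0.57), and it was -0.14 without Folr1+/+ replicate 2.

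Ddit3 encodes CHOP, a transcription factor that promotes cell death under lasting stress. Its signal was 33.3 and 40.5 in the Folr1-/- replicates, against 30.4, 17.3 and 38.0 in the Folr1+/+ replicates. Folr1-/- replicate 2 was the highest array and Folr1+/+ replicate 2 the lowest, with the others between. The log2 fold change was 0.27 ± 0.24 (SE, limma adjusted p = 0.49, 95% interval -0.26 to 0.80).

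Trib3, a pseudokinase that is induced by ATF4 and CHOP and dampens their activity, was dim on both of its probe sets. The brighter, 1456225_x_at, had 3.93 and 14.8 in the Folr1-/- replicates, against 5.35, 37.2 and 19.8 in the Folr1+/+ replicates. The other, 1426065_a_at, had 18.4 and 14.8 in the Folr1-/- replicates, against 16.5, 7.59 and 10.9 in the Folr1+/+ replicates. The differences were -0.47 and 0.25 on the log2(signal + 16) scale, and the groups overlap on both. At these signals, near or under the 16 added before the log, no level of Trib3 can be compared.

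Asns, the enzyme that makes asparagine and a widely used readout of ATF4 activity, had the lowest fold change of the tested members. Its signals were 546 and 557 in the Folr1-/- replicates, against 719, 543 and 714 in the Folr1+/+ replicates. The Folr1-/- values were close to each other and overlapped the Folr1+/+ group only through Folr1+/+ replicate 2. The log2 fold change was -0.24 ± 0.16 (SE, limma adjusted p = 0.36), with a 95% interval of -0.59 to 0.12. It was negative at all 16 other settings, from -0.37 without Folr1+/+ replicate 2 to -0.14 with the mean of the probe sets. The second probe set, 1433966_x_at, had 364 and 345 in Folr1-/- arrays, against 397, 316 and 391 in Folr1+/+ arrays, a difference of -0.05.

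Chac1 breaks down glutathione and is among the most responsive ATF4 targets known in cultured cells. Its signal was 19.4 and 31.1 in the Folr1-/- replicates, against 33.2, 27.7 and 22.8 in the Folr1+/+ replicates. The groups overlapped, and the difference was -0.10 on the log2(signal + 16) scale. The gene was under the filter in the fit over genes, and its probe set, which passed the filter over probe sets, had a limma adjusted p of 0.82 there.

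Sesn2 encodes sestrin 2, a leucine sensor that restrains the growth kinase mTORC1. Its brighter probe set, 1425139_at, had 73.0 and 89.3 in the Folr1-/- replicates, against 59.0, 77.7 and 41.6 in the Folr1+/+ replicates. Folr1+/+ replicate 2 lay between the Folr1-/- values. The log2 fold change was 0.39 ± 0.23 (SE, limma adjusted p = 0.28, 95% interval -0.11 to 0.88). The other probe set, 1451599_at, had 8.88 and 9.30 in Folr1-/- arrays, against 49.8, 9.57 and 13.0 in Folr1+/+ arrays. It was under 16 on all arrays but Folr1+/+ replicate 1 and was too dim for the test, so it gives no direction.

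Phgdh catalyses the step that commits 3-phosphoglycerate to serine. Its representative probe set, 1454714_x_at, read 1599 and 1703 in the Folr1-/- replicates, against 1324, 1016 and 1126 in the Folr1+/+ replicates. Both Folr1-/- arrays were above every Folr1+/+ array. Phgdh rose by 0.52 ± 0.15 (SE) on the log2 scale, with a 95% interval of 0.18 to 0.85 and a limma adjusted p of 0.040. The ratio of the mean signals was 1.43.

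The other probe sets of Phgdh were less even. Probe set 1437621_x_at had 1281 and 1346 in Folr1-/- arrays, against 967, 665 and 897 in Folr1+/+ arrays, a difference of 0.65 with no overlap. Probe set 1426658_x_at had 819 and 654 in Folr1-/- arrays, against 674, 299.9 and 460.3 in Folr1+/+ arrays, a difference of 0.67. Probe set 1456584_x_at had 943 and 672 in Folr1-/- arrays, against 794, 673 and 644 in Folr1+/+ arrays, a difference of 0.18. The difference was thus positive on all 4 probe sets, and the groups overlapped on the last 2 of them. A further 2 probe sets, left out because the annotation assigns them to Phgdh and to a predicted gene as well, gave ratios of mean signals of 1.54 (shared with Gm8096) and 0.96 (shared with Gm6756). All 4 Phgdh probe sets carry the suffix _x_at, which the maker gives to sets with probes that may bind other transcripts, so the level of Phgdh is uncertain.

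In a fit over 13576 probe sets in place of genes, 15 of the 19 member probe sets passed the filter and 1 passed the threshold, while 11.2% of all probe sets tested did. It was 1437621_x_at of Phgdh (limma adjusted p = 0.039), and 1454714_x_at and the probe set of Psph had adjusted p of 0.054 and 0.062 there.

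**Figure D2:**
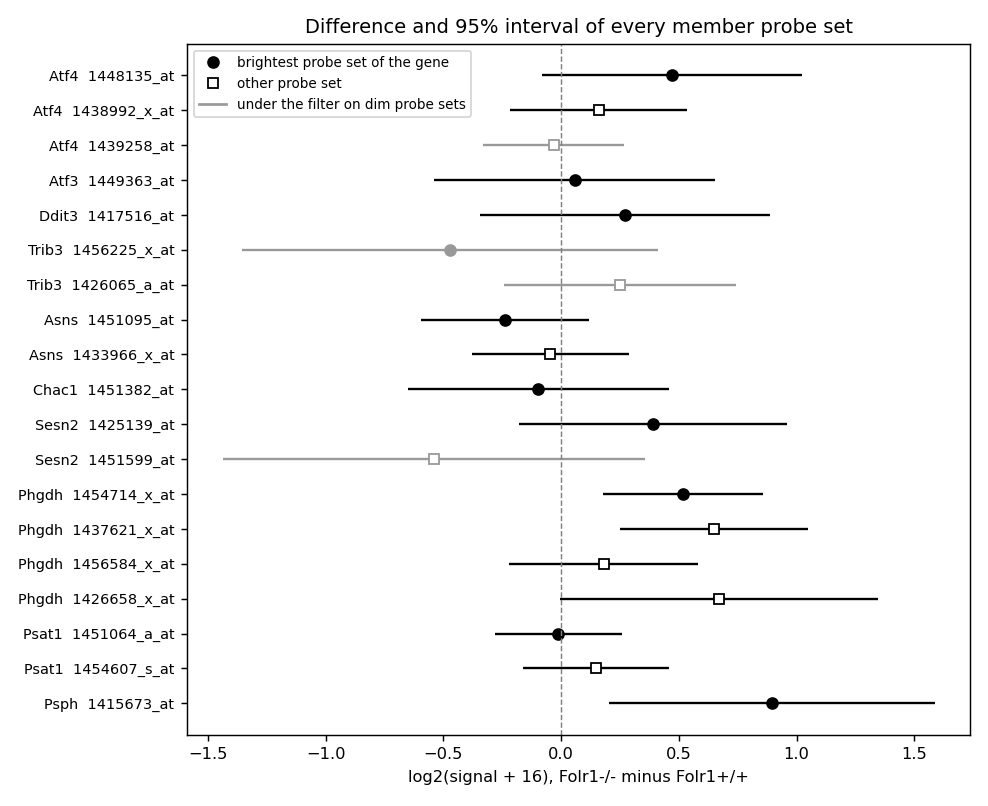
Difference in log2(signal + 16), Folr1-/- minus Folr1+/+, for all 19 probe sets of the 10 genes, with 95% intervals from a limma fit over probe sets with no filter on dim ones. Intervals of 2 Phgdh probe sets and of Psph lie above 0, and the probe sets in grey, among them both of Trib3 and 1 of Sesn2, are too dim for a direction to be read.

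Psat1, the transaminase between the other enzymes of serine synthesis, was the most even of the members. Its signal was 674 and 635 in the Folr1-/- replicates, against 653, 665 and 662 in the Folr1+/+ replicates. The SD of its log2 signal among Folr1+/+ arrays was 0.013, at the 0.403th percentile of tested genes. The log2 fold change was -0.01 ± 0.14 (SE, limma adjusted p = 0.96), with a 95% interval of -0.32 to 0.29. That interval leaves out the estimate for Phgdh, but the difference between the genes was not tested. The second probe set, 1454607_s_at, had 633 and 742 in Folr1-/- arrays, against 609, 668 and 578 in Folr1+/+ arrays, a difference of 0.15 with overlapping groups.

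Psph removes the phosphate in the last step of serine synthesis and had the highest fold change of the members. Its single probe set read 152 and 122 in the Folr1-/- replicates, against 88.8, 37.5 and 81.5 in the Folr1+/+ replicates. Both Folr1-/- arrays were above every Folr1+/+ array, and Folr1+/+ replicate 2 lay far under the other Folr1+/+ arrays. Psph rose by 0.89 ± 0.27 (SE) on the log2 scale, with a 95% interval of 0.31 to 1.48 and a limma adjusted p of 0.044. Without Folr1+/+ replicate 2 the value was 0.59 and the call was lost (limma adjusted p = 0.064). The SD of the log2 signal of Psph among Folr1+/+ arrays, 0.53, was at the 97.5th percentile of tested genes. The moderated test draws such a spread toward that of other genes, so the SE and the call of Psph rest in part on them.

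The promoter windows of the 2 genes that rose are printed along the strand of the gene, with the 50 bases from the start onward in capitals. They hold no TGATGNAA on either strand, though the windows miss sites farther from the start. Both hold the CCAAT box, the binding sequence of the factor NF-Y, as do 8 of the 10 genes and 37.4% of all promoters.
Phgdh, chr3:98339920-98340219, minus strand: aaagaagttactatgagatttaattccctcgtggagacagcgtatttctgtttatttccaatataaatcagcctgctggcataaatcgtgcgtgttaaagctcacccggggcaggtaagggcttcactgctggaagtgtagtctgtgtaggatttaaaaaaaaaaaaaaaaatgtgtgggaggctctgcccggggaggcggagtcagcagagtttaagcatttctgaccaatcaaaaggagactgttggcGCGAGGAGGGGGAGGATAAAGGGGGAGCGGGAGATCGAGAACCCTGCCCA
Psph, chr5:129787204-129787503, minus strand: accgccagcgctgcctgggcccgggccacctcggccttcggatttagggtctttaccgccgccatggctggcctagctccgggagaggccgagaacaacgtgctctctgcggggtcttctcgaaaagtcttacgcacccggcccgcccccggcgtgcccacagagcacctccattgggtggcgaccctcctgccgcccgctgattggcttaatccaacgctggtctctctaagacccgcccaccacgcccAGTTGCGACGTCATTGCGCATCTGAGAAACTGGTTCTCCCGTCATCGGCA
The share of G and C was 47.7% in the Phgdh window and 65.0% in the Psph window. The Psph start used in the table lies 190 bases inside the outermost end of the gene, so other starts have other sequence before them.

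**Figure D3:**
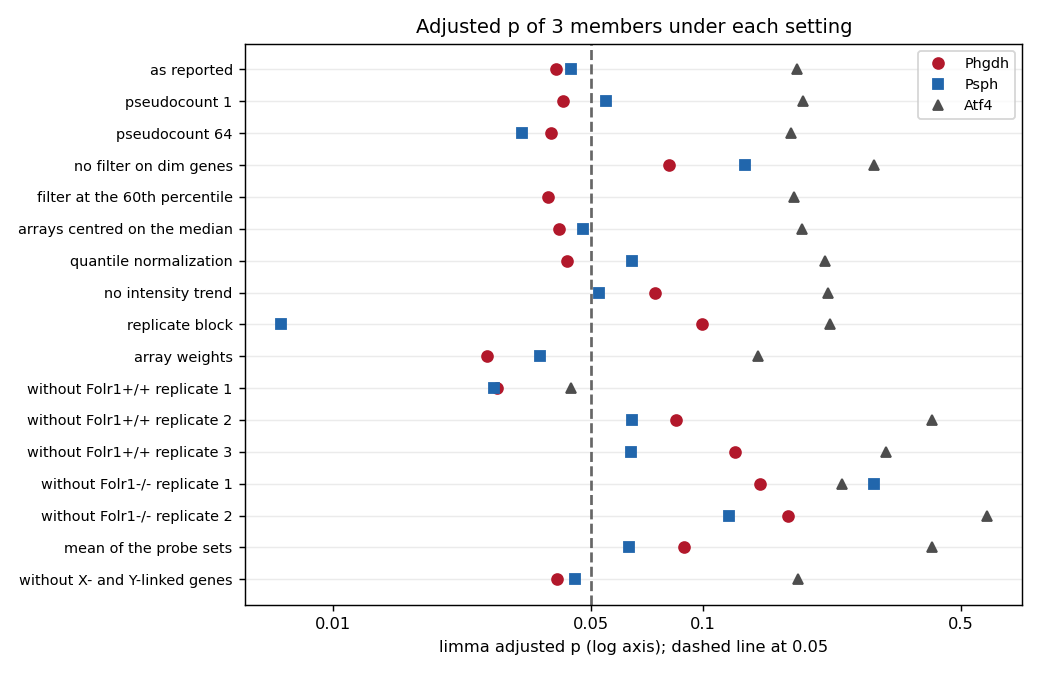
Limma adjusted p of Phgdh, Psph and Atf4 as reported and under each other setting, on a log axis with a dashed line at 0.05. Phgdh passed at 8 of 16 other settings, Psph at 6 of 15 and Atf4 at 1 of 16.

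Related genes were read from 6 lists of the stress response and of serine use. Together the lists hold 64 tested genes other than the members, of which 6 rose and 4 fell. That is 15.6% past the threshold, beside 15.0% of all tested genes, with a median log2 fold change of 0.07. Of these 10 genes, Gldc and Dnajc3 also passed without each array in turn, and the other 8 lost the call when Folr1-/- replicate 1 or replicate 2 was left out. When all probe sets of a gene were averaged, 7 of the 10 lost it, with values of 0.46 for Dnajc3, 0.43 for Pdia4, 0.27 for Jdp2, -0.20 for Cebpg, -0.45 for Stc2, -0.49 for Wars and -0.76 for Ddit4. The value of Ddit4 was the same as without averaging, and only its limma adjusted p changed, to 0.062.

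Among the kinases, phosphatases and partner factors around eIF2, 8 were tested, of which 1 rose and 1 fell, with a median of -0.05. Nfe2l2, which encodes the antioxidant regulator NRF2, had 332 and 357 in Folr1-/- arrays, against 202, 242 and 224 in Folr1+/+ arrays (0.60 ± 0.16, SE, limma adjusted p = 0.025). Cebpg, a dimer partner of ATF4, had 286 and 317 in Folr1-/- arrays, against 419 to 474 in Folr1+/+ arrays (-0.52 ± 0.15, limma adjusted p = 0.037), and this call was lost without any 1 of the 5 arrays. The kinase genes Eif2ak1, Eif2ak3 and Eif2ak4 had values of -0.04, -0.06 and 0.09. Ppp1r15a, the stress-induced subunit that guides the eIF2 phosphatase, had 0.07.

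Amino acid transporters known as ATF4 targets had 1 gene higher, 0 lower and 7 not passing of 8 tested, with a median of -0.32. The gene that rose was Slc7a3, a carrier of arginine and lysine, with 120.5 and 99.3 in Folr1-/- arrays, against 54.6, 77.8 and 61.5 in Folr1+/+ arrays (0.65 ± 0.20, SE, limma adjusted p = 0.046). It is X-linked. Of 11 tested genes of the aminoacyl-tRNA synthetase list, which also holds the tRNA exporter Xpot, 1 fell and 10 did not pass (median -0.10). The one that fell was Wars, which charges tRNA with tryptophan, with 397 and 415 in Folr1-/- arrays, against 627, 617 and 897 in Folr1+/+ arrays (-0.77 ± 0.18, SE, limma adjusted p = 0.014).

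Further ATF4 targets of stress and metabolism split, with 13 tested, 1 of them higher, 2 lower and the other 10 not past the threshold (median 0.12). Jdp2, a repressor of the AP-1 group, had 99.7 and 92.1 in Folr1-/- arrays, against 48.1, 36.0 and 52.4 in Folr1+/+ arrays (0.87 ± 0.20, SE). Stc2, a secreted glycoprotein, had 50.2 and 50.8 in Folr1-/- arrays, against 119, 84.4 and 108 in Folr1+/+ arrays (-0.84 ± 0.19, SE). Ddit4, an inhibitor of mTORC1 that hypoxia also induces, had 115 and 158 in Folr1-/- arrays, against 174, 311 and 252 in Folr1+/+ arrays (-0.76 ± 0.23, SE). The limma adjusted p values of Jdp2, Stc2 and Ddit4 were 0.012, 0.013 and 0.044.

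Genes that use serine or glycine around the folate cycle had 1 of 10 tested genes higher, 0 lower and 9 not passing (median 0.01). It was Gldc, the decarboxylase of the glycine cleavage system, whose loss in mice disturbs neural tube closure. Gldc had 319 and 348 in Folr1-/- arrays, against 191, 139 and 175 in Folr1+/+ arrays (0.93 ± 0.17, SE, limma adjusted p = 0.0040). It passed at all 16 other settings, with values of 0.78 to 1.02. The serine hydroxymethyltransferase genes Shmt1 and Shmt2, which hand the carbon unit of serine to folate, had -0.12 ± 0.22 and -0.07 ± 0.22 (SE). Mthfd2, a mitochondrial folate enzyme and an ATF4 target, had -0.16 ± 0.16 (SE). Among the others that did not pass, Gcsh, which works with Gldc in glycine cleavage, had 0.47 ± 0.17 (SE, limma adjusted p = 0.086), and Mthfd1, a cytosolic folate enzyme, had 0.35 ± 0.15 (SE, limma adjusted p = 0.13). Sptlc2, a subunit of the enzyme that uses serine for sphingolipids, had 0.33 ± 0.15 (SE, limma adjusted p = 0.17). In each of these 3 genes both Folr1-/- arrays were above every Folr1+/+ array; groups were apart in one direction or the other in 46.7% of the genes tested.

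In the other branches of the unfolded protein response 2 of 14 tested genes rose, 0 fell and 12 did not pass, with a median of 0.28. Dnajc3, a chaperone helper that restrains the eIF2 kinase PERK, had 254 and 257 in Folr1-/- arrays, against 138, 133 and 113 in Folr1+/+ arrays (0.92 ± 0.17, SE, limma adjusted p = 0.0034). Pdia4, a disulfide isomerase, had 182 and 149 in Folr1-/- arrays, against 103, 62.3 and 92.4 in Folr1+/+ arrays (0.85 ± 0.21, SE, limma adjusted p = 0.019). The master chaperone gene Hspa5 had -0.13 ± 0.15 (SE) and Xbp1, the factor of the IRE1 branch, 0.20 ± 0.16 (SE). Markers of the secretory visceral endoderm were higher in the same arrays, as given above, and their part in these values was not tested.

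**Figure D4:**
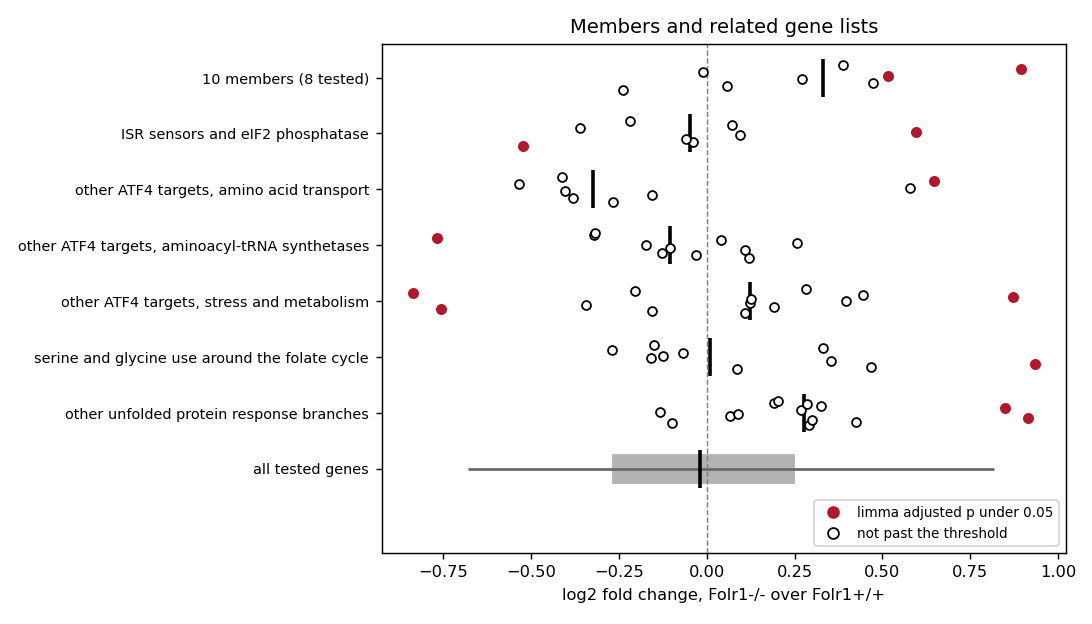
Log2 fold change, Folr1-/- over Folr1+/+, of the tested members and of the tested genes of the 6 related lists, with red points past the threshold and a bar at each median. The box for all tested genes spans the 25th to 75th percentile (-0.27 to 0.25) and its line the 5th to 95th (-0.68 to 0.82).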

How the data were processed

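The authors deposited 1 intensity per probe set and array, on a linear scale. It is the MAS5 signal, per the submitters' processing notes. The mean signal of each array, trimmed by 2% at each end, was the same (150.1), so the scaling was kept. RNA was amplified in 2 rounds, per the labels' protocols. Detection calls were not used here.

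Of 22690 probe sets, 64 are controls and 20380 have 1 gene symbol in the platform annotation. No more than 3 residual degrees of freedom per gene limit the precision. The moderated test pools the spread of a gene between these arrays with that of other genes of like signal. SE and p-values thus rest in part on other genes. This lowers the SE of genes with a large spread, such as Psph, and raises that of even genes, such as Psat1. Values were tested as log2(signal + 16) with lmFit and eBayes (with an intensity trend) in limma 3.58.1 under R 4.3.3, and the code was tested on simulated data. The RefSeq tables of GRCm38.p6 served for names, chromosomes and promoters. The text names all 10 members, and of the 6 lists every gene past the threshold, at most 5 a list. Others named beside them were chosen after their values were seen. Members, lists and markers were chosen with earlier results of these data known. Alternatives covered pseudocounts of 1 and 64, filters, scaling, probe sets per gene, the trend, a replicate block, array weights, leaving out each array and the X- and Y-linked genes.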

Additional observations from a re-analysis of the deposited data

How the results depend on the processing

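With 2 against 3 arrays and adjusted p values of 0.040 and 0.044, the calls of Phgdh and Psph depend on the processing. Their fold changes were 0.43 to 0.62 and 0.59 to 1.07 over the settings tried. In both genes each Folr1-/- array was above every Folr1+/+ array. Leaving out an array or changing the pseudocount, filter or trend could therefore not turn the sign. The count of members past the threshold was 2 as reported. It was 1 with a pseudocount of 1, the filter at the 60th percentile (where Psph is not tested), quantile normalization or the replicate block. It was 0 with no filter, no intensity trend or the mean of the probe sets, and 0 to 3 when 1 array was left out. Member probe sets past the threshold numbered 1 as reported. They numbered 2 with a pseudocount of 64, the filter at the 60th percentile, median centring, quantile normalization or array weights, 0 with no filter or no intensity trend, and 0 to 4 when 1 array was left out. Genes of the related lists past the threshold numbered 10 as reported, 6 with no filter, 5 with the mean of the probe sets and 2 to 10 when 1 array was left out. Over all genes, 1114 passed as reported and 367 to 1023 when 1 array was left out (639 without Folr1+/+ replicate 3, 367 without Folr1-/- replicate 1, 661 without Folr1-/- replicate 2). A group left with 1 array is assumed to vary like the other group. Signs turned for Atf3 without Folr1+/+ replicate 2 (range -0.14 to 0.23 when 1 array was left out), for Sesn2 with the mean of the probe sets (-0.077, which takes in a probe set too dim for a test), and for Psat1 without Folr1-/- replicate 2 (range -0.054 to 0.031) and with the mean of the probe sets (0.068). The causes were not tested. With the replicate number as a block, Psph passed (1.02, limma adjusted p = 0.0072) and Phgdh did not (0.50, 0.0995). Folr1+/+ replicate 3 has no Folr1-/- partner in that fit, so these fold changes are the same as without it. The block also leaves fewer than 3 residual degrees of freedom, so the p values rest still more on the spread of other genes. Whether the numbers pair the arrays is not settled. Deviations of same-numbered arrays correlated at 0.019 and -0.056 over tested genes. With 2 Folr1-/- arrays their deviations are mirror images of each other, so these correlations cannot decide it. Arrays of this kind give no depth, and Trib3, Chac1 and Ddit3 are limited by signals near the pseudocount.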
